A study of Homo sapiens with 8 samples.

Results

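A set of 10 genes of the bone morphogenetic protein (BMP) response were followed in RD cells, a human rhabdomyosarcoma line of the skeletal muscle lineage: the 4 ID genes, the inhibitory SMADs SMAD6 and SMAD7, the ligand BMP4, the secreted antagonists NOG and GREM1, and the decoy receptor BAMBI. They were taken by symbol from a list drawn up with earlier results of these data known. All 10 were found among the 58302 genes of each library. RNA was sequenced from 4 libraries of RD cells carrying a scrambled short hairpin RNA (control) and 4 carrying a hairpin against PROX1 (shPROX1), which the series describes as biological replicates. Cells of both groups grew in high-glucose medium with 10% fetal bovine serum, and no BMP or BMP inhibitor is named for either group. The hairpin sequence and the time after its delivery were not stated in the labels, and effects of the hairpin itself and of PROX1 loss cannot be told apart.

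BMPs are secreted ligands of the TGF-beta superfamily. They bind paired type I and type II receptor kinases, which phosphorylate SMAD1, SMAD5 and SMAD9, and these enter the nucleus with SMAD4 and switch on target genes. The ID genes are classical early targets: ID proteins hold a helix-loop-helix but no DNA-binding region, and by pairing with E proteins they keep myogenic factors such as MYOD1 from DNA, so that BMP signals are known to hold myoblasts back from differentiation. SMAD6, SMAD7 and BAMBI are feedback inhibitors inside or at the surface of the cell, and noggin (NOG) and gremlin (GREM1) trap BMPs outside it.

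The 250 bases before the RefSeq gene start (GRCh38.p14) are shown for the ID genes, of which 3 rose together and 1 did not, and for SMAD6, whose window holds a SMAD palindrome. They lie at chr20:31605039-31605288 (plus strand), chr2:8681806-8682055 (plus), chr1:23559502-23559751 (minus), chr6:19837120-19837369 (plus) and chr15:66701986-66702235 (plus), each written 5' to 3' on the gene's strand. These starts are RefSeq's and are not always the gene's outer end in the files, as for ID2. Capitals mark matches on either strand to the E-box CANNTG, the TATA sequence TATAAA and the SMAD palindrome GTCTAGAC.
ID1: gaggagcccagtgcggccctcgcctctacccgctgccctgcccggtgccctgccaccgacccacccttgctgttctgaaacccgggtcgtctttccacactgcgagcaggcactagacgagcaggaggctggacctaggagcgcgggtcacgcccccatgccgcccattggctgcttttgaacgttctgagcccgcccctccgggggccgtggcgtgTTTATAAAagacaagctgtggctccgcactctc
ID2: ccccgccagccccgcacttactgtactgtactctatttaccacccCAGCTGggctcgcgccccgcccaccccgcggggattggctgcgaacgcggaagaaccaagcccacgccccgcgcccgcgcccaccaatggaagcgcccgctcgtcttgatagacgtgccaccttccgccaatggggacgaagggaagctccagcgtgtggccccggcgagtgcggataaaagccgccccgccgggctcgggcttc
ID3: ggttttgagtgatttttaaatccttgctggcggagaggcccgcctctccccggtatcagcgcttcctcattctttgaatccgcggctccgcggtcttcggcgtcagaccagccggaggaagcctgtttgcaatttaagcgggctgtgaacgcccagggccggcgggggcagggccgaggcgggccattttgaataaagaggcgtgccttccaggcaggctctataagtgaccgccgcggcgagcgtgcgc
ID4: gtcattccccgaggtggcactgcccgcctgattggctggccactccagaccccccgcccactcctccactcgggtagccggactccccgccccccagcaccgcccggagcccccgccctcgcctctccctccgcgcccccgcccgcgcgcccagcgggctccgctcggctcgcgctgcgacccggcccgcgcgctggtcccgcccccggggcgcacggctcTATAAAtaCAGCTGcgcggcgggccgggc
SMAD6: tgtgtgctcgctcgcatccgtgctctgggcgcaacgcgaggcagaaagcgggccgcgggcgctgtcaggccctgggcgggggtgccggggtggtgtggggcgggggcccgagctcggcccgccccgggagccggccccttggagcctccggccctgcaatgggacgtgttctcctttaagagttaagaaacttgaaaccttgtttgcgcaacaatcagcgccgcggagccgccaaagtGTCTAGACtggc

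These windows were rich in G and C (62% in ID3 to 78.8% in ID4) and shared few of the searched letters. TATAAA was found in ID1, 31 bases before the start on the plus strand and overlapping a second match on the other strand, and in ID4 at 29 bases, and it was in 10.7% of the 35114 promoter windows of this length. An E-box, in both cases of the form CAGCTG, lay 205 bases before the start of ID2 and 21 bases before that of ID4. CANNTG was in 61.8% of all windows and CAGCTG, which it includes, in 14.0%. The palindrome GTCTAGAC lay 12 bases before the start of SMAD6 and was in 0.182% of all windows. It was in no other member window that was searched, and SMAD6 was picked for display because of this match. The GC-rich sequence GGCGCC, another form bound by BMP SMADs, was in none of these 5 windows and in 16.4% of all. Among the other members' windows it was found in BAMBI (3 matches), GREM1 (2) and a BMP4 window (1). Its variant GGAGCC was in ID1, ID3, ID4 and SMAD6 and in 30.6% of all. The sequence CCAAT was in ID1, ID2 and ID4 and in 32.0% of all. None of the 7 motifs was in ID1, ID2 and ID3 and absent from ID4, or the reverse, and matches are letters in a window, not measured binding. RefSeq windows were matched for 9 of the 10 genes. NOG had no window, so its promoter was not searched.

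Libraries held 3747090 to 4865161 counts assigned to genes. Levels are in CPM, read counts scaled to library size with edgeR's factors, and ± after a mean level is the SD over the 4 libraries of a group. A positive log2 change means a higher level in shPROX1, and ± after it is the fitted standard error. A gene is said to have risen or fallen where edgeR's quasi-likelihood test passed a Benjamini-Hochberg adjusted p of 0.05 over all 12392 tested genes. PROX1 itself (chromosome 1) stood at 20.1, 16.3, 16.6 and 21.3 CPM in the control libraries and at 7.80, 10.4, 9.14 and 8.26 CPM in the shPROX1 libraries, so that every library matched its label (log2 change -1.07 ± 0.15, edgeR adjusted p = 4.89e-06). Muscle markers were present, with desmin (DES) at 544 CPM and MYOD1 at 71.0 CPM in control. Of 5 tested, 0 rose and 3 fell (MYOG -1.32 ± 0.06, MYH3 -0.94 ± 0.06 and DES -0.18 ± 0.04), and CHRNA1 was not called (0.01 ± 0.04). Over all 12392 tested genes 17.3% rose and 17.9% fell. Of the other cell types looked for, haematopoietic markers summed to at most 2.42 CPM in any library with CD3E at 0 counts, and epithelial markers to 2.47 to 5.79 CPM in control and 6.62 to 8.94 CPM in shPROX1 with KRT5 and KRT14 at 0. Nearly all of the epithelial sum was CLDN4, the 1 marker of 5 that was tested, which rose (0.76 ± 0.22). Endothelial markers summed to 39.3 to 53.4 CPM in control and 41.8 to 46.7 CPM in shPROX1, nearly all of it the receptor TEK, with CDH5 at 0. Fibroblast markers summed to 123 to 145 CPM in control and 160 to 172 CPM in shPROX1, nearly all of it THY1 and COL1A1. Both, the only tested genes of the 6, rose (THY1 0.46 ± 0.07 and COL1A1 0.24 ± 0.08), but the groups overlapped for COL1A1. PDGFRA, DCN, LUM and FAP had group means of at most 0.692 CPM. The part of these markers in the results below was not tested. In such bulk RNA a change in the share of cells that express a gene and a change in RNA per cell cannot be told apart.

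After PROX1 silencing 5 of the 7 tested genes rose and 0 fell: NOG (3.46-fold), ID2 (2.72-fold), ID1 (2.02-fold), SMAD7 (1.64-fold) and ID3 (1.60-fold). ID4 and SMAD6 did not pass the test, and BMP4, GREM1 and BAMBI had too few counts to enter it. Of all tested genes 35.2% differed, 17.3% rose and 17.9% fell. All 7 tested genes had at least 10 counts in each of the 8 libraries, so none entered the test through 1 group alone. The median log2 change of the 7 was 0.72, against -0.007 over all tested genes. Since the members were chosen with earlier results of these data known, this contrast is descriptive only. The CPM ranges of the groups were apart in 6 of the 10 genes, a pattern found in 32.4% of tested genes. The 6 were the 5 that rose and GREM1.

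**Figure D1:**
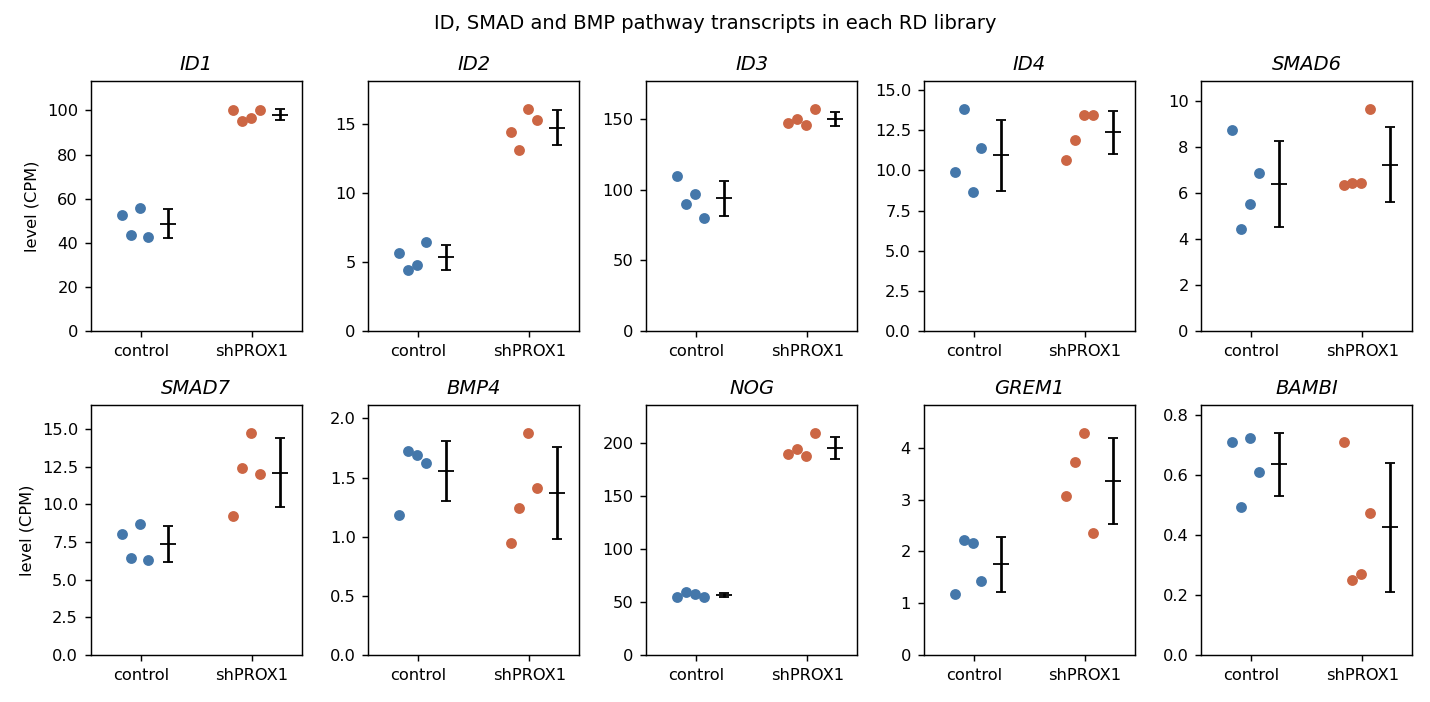
Level of each of the 10 genes in CPM (vertical axis, from 0) in the 4 control and 4 shPROX1 libraries; points are libraries, and the bar is the mean with 1 SD. ID1, ID2, ID3, SMAD7, NOG and GREM1 have no overlap between the groups, and the other 4 genes overlap.

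ID1 (chromosome 20, 31605283 to 31606515, plus strand), the ID gene best known as a direct BMP target, stood at 52.5, 43.5, 55.9 and 42.8 CPM in control. In shPROX1 it stood at 100.3, 95.4, 96.5 and 100.3 CPM. The lowest silenced library lay well above the highest control library, and the silenced libraries were closer together (48.7 ± 6.54 against 98.1 ± 2.56 CPM). The log2 change was 1.02 ± 0.08 (edgeR adjusted p = 3.70e-10, higher in 4 of 4 libraries).

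ID3 (chromosome 1, 23557918 to 23559794, minus strand), which acts much like ID1 and often overlaps with it in function, rose as well, by less. It stood at 109, 89.9, 96.9 and 79.8 CPM in control and at 147, 150.0, 146 and 157 CPM in shPROX1. The control libraries spread over a wider range than the silenced ones, without overlap (94.0 ± 12.5 against 150.0 ± 5.11 CPM). Its log2 change was 0.68 ± 0.07 (edgeR adjusted p = 8.59e-08), and its 95% interval of 0.53 to 0.83 lay below that of ID1 (0.86 to 1.17).

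ID2 (chromosome 2, 8678845 to 8684453, plus strand), also known as a partner of the retinoblastoma protein, had few counts and the largest log2 change of the 4 ID genes. Counts of 24, 18, 20 and 32 in control compared with 61, 53, 60 and 65 in shPROX1. In CPM the control libraries lay between 4.44 and 6.50 and the silenced ones between 13.2 and 16.1. The log2 change was 1.44 ± 0.17 (edgeR adjusted p = 3.51e-07). With so few counts its interval was wide (95% interval 1.10 to 1.78), yet it did not reach that of ID3. ID2 shares 1.72% of its exon bases with an antisense neighbour.

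ID4 (chromosome 6, 19837386 to 19840684, plus strand), which differs from its relatives in that it can oppose other ID proteins, did not move with them. Control libraries held 9.93, 13.8, 8.68 and 11.4 CPM and shPROX1 libraries 10.6, 11.9, 13.4 and 13.5 CPM. The groups overlapped throughout, and the difference of 0.17 ± 0.16 on the log2 scale did not pass (edgeR adjusted p = 0.433). Its 95% interval of -0.16 to 0.50 lay below those of ID1 and ID2 and just below that of ID3.

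The make-up of the ID counts differed between the groups. Summed over ID1 to ID4, control libraries held 751, 614, 690 and 692 counts and shPROX1 libraries 1153, 1089, 1011 and 1213. ID1 made up 29.6%, 28.7%, 33.6% and 30.5% of these counts in control and 36.8%, 35.3%, 35.5% and 35% in shPROX1. These are shares of counts, not of molecules, and do not depend on library scaling. The ID1 share was higher by 5.06 percentage points after silencing, without overlap (two-sided exact permutation p = 0.0286 with 4 libraries a group, the lowest value 70 arrangements can give). Against ID3 alone it was higher by 5.41 points (exact permutation p = 0.0286). ID2 went from 3.41% ± 0.819 to 5.36% ± 0.439 (SD, n = 4), ID3 from 59.0% ± 2.04 to 54.5% ± 0.837 and ID4 from 7.01% ± 1.90 to 4.49% ± 0.448. These 3 shares are given as values without a test, since all 4 sum to the whole. ID3 remained the largest share in all 8 libraries, with ID1 second.

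**Figure D2:**
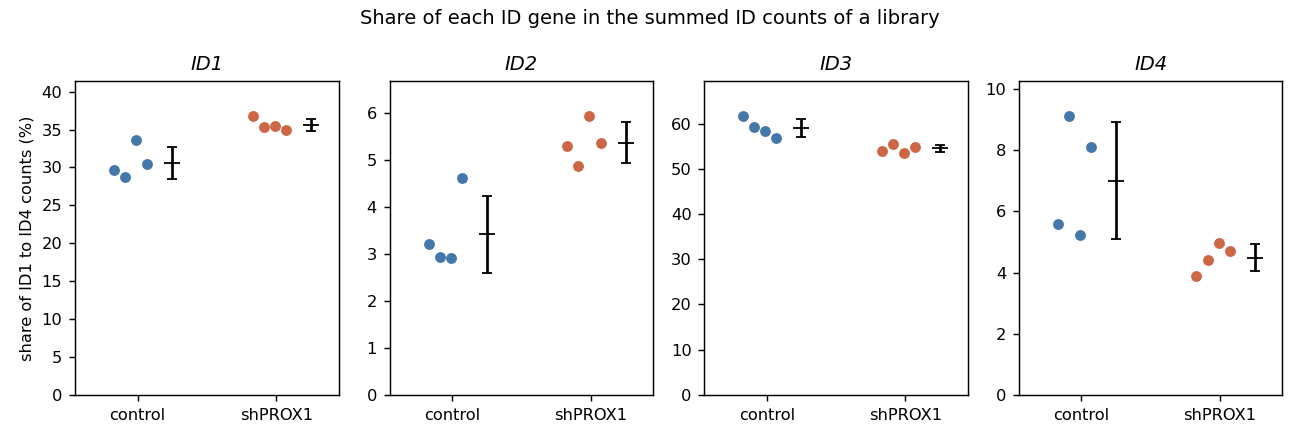
Share of each ID gene in the summed ID1 to ID4 counts of a library (percent, from 0), for 4 control and 4 shPROX1 libraries; the bar is the mean with 1 SD. ID1 and ID2 take a larger part after silencing and ID3 and ID4 a smaller one, with ID1 at 30.6% in control and 35.6% in shPROX1.

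Of the 2 inhibitory SMADs, 1 rose. SMAD7 (chromosome 18, 48919853 to 48950711, minus strand) blocks both the TGF-beta and the BMP branch and is induced by both. It stood at 8.04, 6.42, 8.68 and 6.29 CPM in control and at 9.22, 12.4, 14.8 and 12.04 CPM in shPROX1. The lowest silenced library lay just above the highest control library (log2 change 0.72 ± 0.18, edgeR adjusted p = 0.00289). SMAD6 (chromosome 15, 66702228 to 66782848, plus strand), which acts chiefly on the BMP branch, stood at 8.75, 4.44, 5.54 and 6.90 CPM in control. In shPROX1 it stood at 6.38, 6.46, 6.45 and 9.68 CPM, inside the control range except for replicate 4. Its log2 difference of 0.17 ± 0.22 did not pass (edgeR adjusted p = 0.581, 95% interval -0.28 to 0.63). Without shPROX1 replicate 4 the difference was -0.003. The intervals of SMAD6 and SMAD7 overlapped, and the difference between their changes was not tested.

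The ligand BMP4 (chromosome 14, 53949736 to 53958761, minus strand) was barely detected. Its counts were 5, 7, 7 and 8 in control and 4, 5, 7 and 6 in shPROX1. At this depth no difference was detectable (1.56 ± 0.253 and 1.37 ± 0.391 CPM, two-sided exact permutation p = 0.457). A level of 3 counts, the limit that a count of 0 allows by counting error, came to between 0.609 and 0.806 CPM.

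NOG (chromosome 17, 56593699 to 56595590, plus strand), a single-exon gene whose product binds BMPs and keeps them from their receptors, changed most of the 10. Its counts were 229, 240, 238 and 271 in control and 799, 780, 698 and 888 in shPROX1. In CPM the libraries stood at 54.1, 59.3, 57.4 and 55.0 in control and at 188.9, 193.7, 187.6 and 209.6 in shPROX1. All silenced libraries lay far above every control library, and replicates of a group differed little (56.4 ± 2.32 and 195.0 ± 10.1 CPM). The log2 change of 1.79 ± 0.06 (edgeR adjusted p = 2.63e-16) placed NOG 45th by size among 2147 genes that rose and 5th by p among the 12392 tested.

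GREM1 (chromosome 15, 32717974 to 32745107, plus strand), an antagonist of the DAN family, went the same way at a far lower level. Counts of 5, 9, 9 and 7 in control compared with 13, 15, 16 and 10 in shPROX1, or 1.75 ± 0.526 against 3.36 ± 0.836 CPM. The groups did not overlap (two-sided exact permutation p = 0.0286, unadjusted and the lowest possible). GREM1 fell short of the count filter, and at least 10 counts were found in 0 control and 4 shPROX1 libraries. With the filter removed it had a log2 difference of 0.94 and passed edgeR's test at adjusted p = 0.0460, and DESeq2 gave adjusted p = 0.121. It shares 1.29% of its exon bases with an antisense gene. BAMBI (chromosome 10, 28677342 to 28682939, plus strand), a receptor-like protein that lacks a kinase domain, had counts of 3, 2, 3 and 3 in control and 3, 1, 1 and 2 in shPROX1. Every library was at or below 3 counts, and no fold is given.

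Levels of different genes were compared as CPM per kilobase of merged exon, since CPM alone favours long transcripts. In control the order was ID3 (52.3 ± 6.93), ID1 (39.5 ± 5.31), NOG (29.8 ± 1.23), ID4 (4.67 ± 0.943), ID2 (2.43 ± 0.416), SMAD7 (1.46 ± 0.236), SMAD6 (0.748 ± 0.216), BMP4 (0.505 ± 0.0820), BAMBI (0.274 ± 0.0459) and GREM1 (0.120 ± 0.0360). Libraries of neighbours in this order overlapped for ID3 with ID1 and for SMAD6 with BMP4, and for no other pair of neighbours. BAMBI was at or below 3 counts in every library, so its place in the order is not resolved. In shPROX1 NOG came first at 103.0 ± 5.36, above ID3 at 83.5 ± 2.85 and ID1 at 79.6 ± 2.08, and ID2 at 6.70 ± 0.577 passed ID4 at 5.27 ± 0.578. Libraries of ID3 and ID1 overlapped again, as did those of GREM1 (0.230 ± 0.0572) and BAMBI (0.184 ± 0.0929). Merged exons can overstate the length of a transcript where isoforms differ; for GREM1 they came to 14.6 kb.

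**Figure D3:**
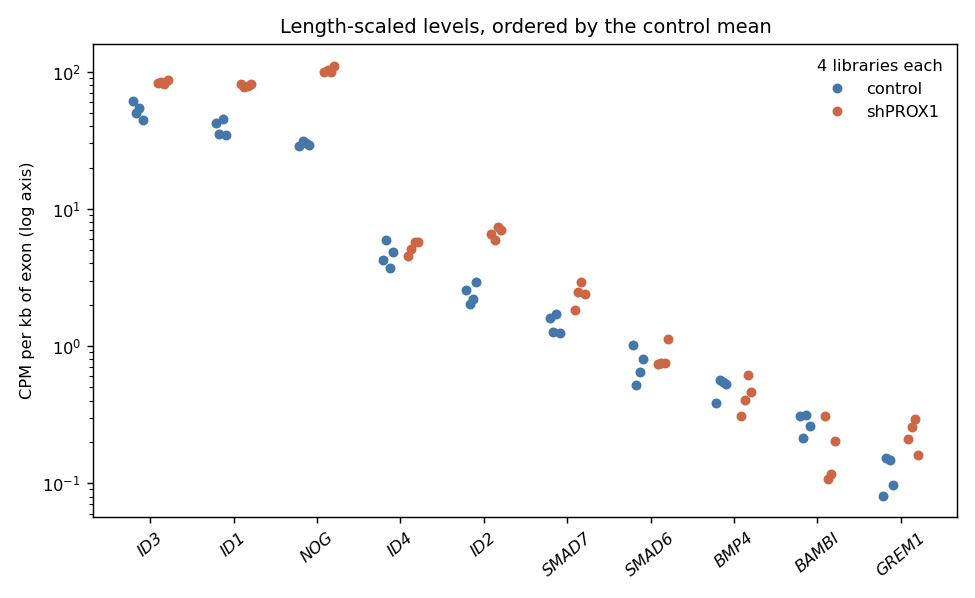
CPM per kilobase of merged exon (log axis) for the 10 genes, ordered by their control mean; points are the 4 control and 4 shPROX1 libraries. NOG moves from rank 3 at 29.8 in control to rank 1 at 103.0 in shPROX1.

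Among the other genes of the pathway, ligands were nearly absent. Of 13 further BMP and GDF ligands, 1 had enough counts to be tested: BMP7 at 1.84 ± 0.789 CPM in control and 3.29 ± 1.68 CPM in shPROX1, which did not pass (log2 difference 0.84 ± 0.37, edgeR adjusted p = 0.0843). BMP6, BMP10, BMP15 and GDF2 had 0 counts in all libraries. Summed with BMP4, the 14 ligand genes gave 4.02, 5.93, 6.75 and 6.29 CPM in control and 6.38, 8.20, 5.91 and 8.26 CPM in shPROX1, with overlap between the groups. Reads of antagonist genes were far more frequent: 18 such genes, NOG and GREM1 included, summed to 867 to 894 CPM in control and 1087 to 1129 CPM in shPROX1. NOG made up 6.38% of that sum in control and 17.8% in shPROX1, and FSTL1, a secreted follistatin-like glycoprotein, gave 660.1 and 674 CPM of it (log2 difference 0.03 ± 0.04, not called). These are shares of reads, which favour long transcripts. Per kilobase of merged exon FSTL1 stood at 75.6 in control and 77.2 in shPROX1, and NOG at 29.8 and 103.0. Of the 16 antagonists beside NOG and GREM1, 6 were tested, of which 3 rose and 0 fell, with a median log2 change of 0.15. Over all tested genes 17.3% rose and 17.9% fell. CHRD, the chordin gene (-0.78 ± 0.31, edgeR adjusted p = 0.0542), and NBL1 (-0.38 ± 0.16, edgeR adjusted p = 0.0739) were lower but did not pass. They were named after their values were seen. CRIM1, a membrane protein that binds BMPs, rose from 65.2 ± 1.74 to 109.7 ± 4.06 CPM (0.75 ± 0.06). TWSG1, which acts with chordin on BMPs, rose as well (0.28 ± 0.07). FSTL3, a follistatin relative, passed (0.48 ± 0.16, edgeR adjusted p = 0.0239), but its groups overlapped. FSTL3 was not called with DESeq2, at a threshold of 0.01, or without control replicate 2, control replicate 4 or shPROX1 replicate 4, which left 2 risen antagonists.

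Among receptors more genes fell than rose. Of 12 receptor and co-receptor genes 11 were tested, 7 fell and 1 rose, with a median log2 change of -0.34; of all tested genes 17.9% fell and 17.3% rose. ACVRL1, a type I receptor known from endothelium, fell from 4.02 ± 0.822 to 1.75 ± 0.800 CPM (log2 change -1.21 ± 0.31). It entered the test through the control group, with at least 10 counts in 4 control libraries and 1 shPROX1 library (counts of 15, 13, 21 and 21 against 9, 4, 10 and 5). The co-receptors RGMA (-0.92 ± 0.18) and HJV (-0.77 ± 0.21) and the type II receptor ACVR2A (-0.76 ± 0.11), which also binds activins, fell too. The remaining falls, named after their values were seen, were small: BMPR2 (-0.34 ± 0.08), ACVR2B (-0.26 ± 0.06) and BMPR1A (-0.23 ± 0.05). For BMPR2 the groups overlapped. BMPR1A, a principal type I receptor for BMP4, stood at 257 ± 10.7 CPM in control and 219 ± 4.19 CPM in shPROX1. The type I receptor ACVR1, likewise named after its value was seen, rose from 31.0 ± 0.848 to 41.5 ± 4.49 CPM (0.42 ± 0.09). The co-receptor RGMB was not called (0.07 ± 0.05) and shares 45.6% of its exon bases with genes on the opposite strand.

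Of the SMADs that carry the signal SMAD9 fell, and SMAD1, SMAD5 and SMAD4 did not pass. All 16 genes of the list of SMADs and modulators were tested, 1 rose and 3 fell, with a median log2 change of -0.08. Among all tested genes 35.2% were called, and with 16 genes no difference from that share is read. SMAD1 was at 66.0 ± 1.49 and 63.3 ± 5.25 CPM (log2 difference -0.06 ± 0.07) and SMAD5 at 159.5 ± 14.0 and 151 ± 5.30 CPM (-0.08 ± 0.06). SMAD4 was at 47.1 ± 3.99 and 41.4 ± 2.26 CPM (-0.19 ± 0.08, edgeR adjusted p = 0.0669). These 3 were named after their values were seen. SMAD2, which serves the TGF-beta branch, was not called (-0.08 ± 0.06). SMAD9 fell from 7.13 ± 1.04 to 4.04 ± 1.03 CPM (-0.80 ± 0.22). The zinc-finger cofactor ZNF423 (-0.86 ± 0.21) and the inner nuclear membrane protein LEMD3, which binds SMADs and restrains them (-0.54 ± 0.06), fell. The 1 rise was that of SMURF2, a ubiquitin ligase that SMAD7 brings to receptors: it stood at 93.6, 88.4, 97.2 and 90.5 CPM in control and at 209.0, 210.4, 218.5 and 196.4 CPM in shPROX1 (1.17 ± 0.05, edgeR adjusted p = 7.87e-14).

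**Figure D4:**
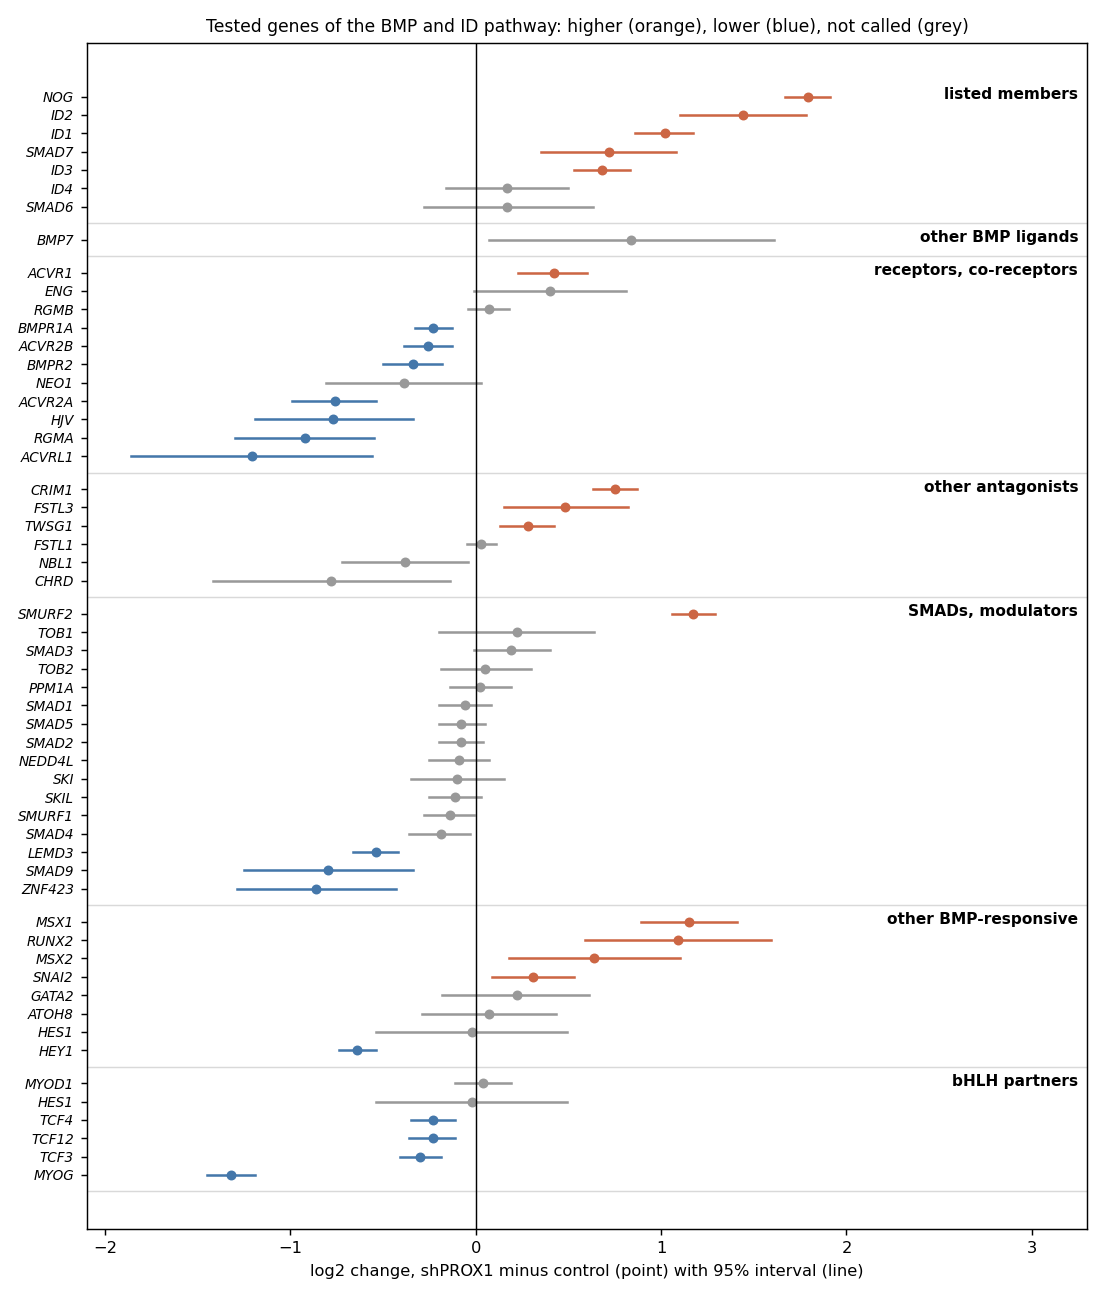
Log2 change (shPROX1 minus control, horizontal axis) with its 95% interval for every tested gene of the BMP and ID lists, 1 row per gene, grouped by role. All 7 tested members lie to the right of 0, of which 5 were called, with NOG at 1.79; of the 11 tested receptors and co-receptors 7 were called as lower and 1 as higher.

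Other genes known to respond to BMPs did not move as one. Of 14, 8 were tested, 4 rose and 1 fell, with a median log2 change of 0.26. Over all tested genes 17.3% rose and 17.9% fell. The homeobox gene MSX1 rose from 13.0 ± 2.17 to 28.8 ± 3.14 CPM (log2 change 1.15 ± 0.13) and its relative MSX2 by less (0.64 ± 0.22). For MSX2 the groups overlapped (edgeR adjusted p = 0.0292). RUNX2, the master regulator of bone formation (1.09 ± 0.24), and SNAI2, named after its value was seen (0.31 ± 0.11), were the other rises. HEY1, a repressor that also answers to Notch, fell from 368 ± 13.4 to 236 ± 7.81 CPM (-0.64 ± 0.05), and ATOH8 (0.07 ± 0.17) did not pass. Of 10 genes known to respond to TGF-beta, all tested, 8 rose and 1 fell, with a median of 0.71, beside the same shares of all tested genes. SMAD7 is 1 of the 8. This list, like the others, was drawn up with earlier results of these data known. The matrix protein LTBP2 rose from 25.6 ± 1.57 to 104.2 ± 8.22 CPM (2.02 ± 0.08), with CCN2 (1.82 ± 0.21) and ANGPTL4 (1.68 ± 0.25), and SKIL did not pass (-0.11 ± 0.07). The fall was that of LMCD1 (-0.35 ± 0.13), named after its value was seen, and its groups overlapped.

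Of 9 bHLH genes, whose products ID factors bind or which belong to the same family, 6 were tested. Of these 0 rose and 4 fell, with a median log2 change of -0.23, where 17.3% of all tested genes rose and 17.9% fell. The E protein genes TCF3 (-0.30 ± 0.05), TCF4 (-0.23 ± 0.06) and TCF12 (-0.23 ± 0.06) fell slightly, from 191.5 ± 6.60 to 155 ± 8.51 CPM in the case of TCF3. For TCF12 the groups overlapped. MYOG, which drives terminal muscle differentiation, fell more (-1.32 ± 0.06), while MYOD1 (0.04 ± 0.07) and HES1 (-0.02 ± 0.25) did not pass (95% intervals -0.11 to 0.19 and -0.54 to 0.49). MYF5, MYF6 and OLIG2 were not tested, and MYF5 and OLIG2 had 0 counts.

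For each risen member, the 3 protein-coding genes of at least 5 CPM with the most similar profile were found among 10534, by the root mean square difference of log2 CPM over the 8 libraries after centring each gene. Nearest to NOG were PLAU, the urokinase plasminogen activator (0.0547), DCBLD2, a membrane receptor (0.0825), and SDC4, a cell-surface proteoglycan (0.0902). ID1 was closest to PROCR, the endothelial protein C receptor (0.0620), DNER (0.0934) and the lysyl oxidase relative LOXL2 (0.109). ID3 was nearest to HSPA1B (0.0747), whose reads may be split with its near-identical copy HSPA1A, to HMCN2 (0.0812) and to the growth factor PDGFA (0.0820). ID2 lay nearest to CRABP2, a carrier of retinoic acid (0.139), GFPT2 (0.147) and GPAT3 (0.147), and SMAD7 to MT1E (0.161), CARD19 (0.164) and the glucose transporter SLC2A1 (0.166). The larger distances of ID2 and SMAD7 go with their lower counts. Likeness here mostly reflects the direction and rough size of the difference between the groups. The genes nearest to SMAD7 (log2 change 0.72 ± 0.18) changed by less: MT1E 0.45 ± 0.15, CARD19 0.56 ± 0.12 and SLC2A1 0.50 ± 0.07.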

How the data were processed

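RNA of 8 RD libraries was measured (4 control, 4 shPROX1; groups and replicate numbers from the labels' titles). The deposited files hold raw counts per Ensembl gene, not normalized by the authors per the file headers and values. FastQC, HISAT2, HTSeq, DESeq2 and GRCh38 appear in the submitters' processing notes. The kit keeps strand per the labels' protocols; neither the annotation release nor the strand setting of the counting is given in the sources used here, and antisense genes may share reads. No row was without a gene (0). Coordinates are the files' own with the start, counted there from 0, raised to 1-based. Exon lengths and overlaps came from GENCODE 29, which held 58039 of 58302 identifiers. Symbols came from newer gene name references, and from GENCODE 29 where these gave none.

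Members and gene lists were chosen with earlier results of these data known. R 4.3.3 and edgeR 4.0.16 were used for the fit of the counts (filterByExpr, TMM factors, quasi-likelihood F test, group only; Benjamini-Hochberg adjustment over 12392 genes). CPM use the fit's library sizes and factors. Single values were tested by exact two-sided permutation (70 arrangements). Members are all named, with, for each list, up to 4 called genes of largest change (mean of at least 1 CPM) and the uncalled gene of highest CPM, all tested bHLH partners, and the 3 nearest profiles of each risen member (log2 CPM, prior count 2). Alternatives were RLE and upper-quartile factors, other count filters, DESeq2 1.42.0, limma 3.58.1 voom, a replicate block, each library left out and a threshold of 0.01. Replicates of a group differed by more than sampling noise in all pairs (chi-square over degrees of freedom 1.19 to 6.34). If they were not separate cultures, p-values measure technical spread only. The fit was tested in R on simulated data. Summaries and figures were made with Python 3.11.15, scipy 1.17.1 and matplotlib 3.10.9. Some genes of the lists are not reported here by name.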

Additional observations from a re-analysis of the deposited data

Results flagged for a closer look

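SMAD6 in shPROX1 replicate 4, at 9.68 CPM, stood apart from the other 3 shPROX1 libraries, which lay between 6.38 and 6.46 CPM (gap over range 0.978). Of 24 groups of 4 libraries examined in this way (10 members, PROX1 and the ID1 share, in 2 conditions), it was the 1 that stood out, and chance gives about 1 in 20.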

How the results depend on the processing

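The 5 risen members stayed called in the same direction under all 15 alternatives: the log2 change of NOG ranged from 1.75 to 1.81, of ID2 from 1.37 to 1.56, of ID1 from 0.96 to 1.09, of SMAD7 from 0.62 to 0.83 and of ID3 from 0.61 to 0.76, with a highest adjusted p of 0.0134 (SMAD7, edgeR, without shPROX1 replicate 3). ID4 (0.08 to 0.295) and SMAD6 (-0.003 to 0.349) were not called under any; SMAD6 reversed to -0.003 without shPROX1 replicate 4. GREM1 was added to the risen members (6 in place of 5) without the count filter, with 1 CPM required in 4 libraries, and without control replicate 2, control replicate 3 or shPROX1 replicate 4, where it passed the filter; it went from an exact p of 0.0286 to 0.0571 with any 1 control library left out (0.796 to 1.081) and to an adjusted p of 0.121 with DESeq2. The replicate numbers pair no cultures in the labels, and same-numbered libraries did not deviate together (r = -0.0508 to 0.0501 over genes); with the replicate number as a block 4187 genes were called in place of 4364, and 5 members rose and 0 fell. The ID1 share rose by 5.06 points in the replicate block of sign flips too (exact p = 0.125, the smallest 16 flips allow), and by 4.42 to 6.07 points with 1 library left out (exact p = 0.0571 of 35 arrangements without any 1 shPROX1 library, 0.0286 without any 1 control library). Other BMP-responsive genes that rose numbered 2 in place of 4 with DESeq2, 2 at a threshold of 0.01 and 2 to 4 with 1 library left out (2 without shPROX1 replicate 2 or 4). Those lost at 0.01 were MSX2 and SNAI2. Risen antagonists numbered 2 in place of 3 with DESeq2 and at 0.01, and 2 to 3 with 1 library left out. The TGF-beta-responsive fall (LMCD1) was lost (0 in place of 1) without the count filter, with DESeq2, at 0.01 and without control replicate 2 or 4 or shPROX1 replicate 1, 2 or 4 (0 to 1). With 1 library left out, risen ligands numbered 0 to 1 (1 without control or shPROX1 replicate 3), risen receptors 1 to 2 (2 without control replicate 3) and fallen antagonists 0 to 2 (2 without control replicate 2, 1 without control replicate 3). Depth limits what can be said of BMP4, GREM1 and BAMBI, and no scaling moved the median of all genes by 0.1.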
